A study of Pimephales promelas with 51 samples.

Results

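The motile cilia and axoneme genes described here are 44 genes of the fathead minnow, Pimephales promelas, taken by name from the 36695 genes counted in whole larvae. A row was a member where its symbol began with dnah, dnai, dnaaf, dnal and a digit, rsph, cfap or drc, or was foxj1a, foxj1b, cep112 or poc1a, and where its mean was at least 5 reads per library. The name fitted 66 rows, and 22 of them had too few reads. Just inside the limit lay cfap77 with a mean of 5.02 reads and dnaaf1 with 5.04, and just outside it rsph9 with 4.51 and cfap97d2 with 4.37. The set was proposed because members differed between larvae given labels of 0.08 µM dexamethasone and 0.19 µM fluticasone propionate. That contrast, and every other comparison that uses either of those groups, is therefore given as a description and supports nothing.

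The study exposed wild-type larvae of the GLTED-Duluth-wt strain, 5-6 dpf, for 24 h to dexamethasone or fluticasone propionate, both synthetic glucocorticoids, and sequenced the 3′ ends of their mRNA. Dexamethasone was given at labels of 0.008, 0.025, 0.08, 0.25, 0.8, 2.5, 8 and 25 µM, measured in the water at 0.0066 to 23.7 µM. Fluticasone propionate was given at labels of 0.003, 0.006, 0.01, 0.019, 0.034, 0.06, 0.1 and 0.19 µM, measured at 0.0019 to 0.0597 µM. The control larvae received DMSO, and each of the 17 groups has 3 libraries, A, B and C, made from pooled homogenates of whole larvae. The labels do not say that the libraries of a group came from separate exposures, and a p-value here reflects only the scatter among these libraries, which may be technical.

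Motile cilia beat by means of an axoneme, a cylinder of microtubule doublets around a central pair. Dynein heavy chains are the motors of its outer and inner arms, and assembly factors fold and load them in the cytoplasm before they enter the cilium. Radial spokes and the nexin-dynein regulatory complex pass signals from the central pair to the arms, and many CFAP proteins sit in or on the doublets. Foxj1 switches these genes on together, and in larval fish such cilia line the kidney tubules, the nasal pits, the brain ventricles and the spinal canal.

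The members were 9 of 10 dynein heavy chain rows, 1 of 7 rows of intermediate and light chains, 6 of 9 rows of assembly factors with cfap298 among them, 4 of 6 radial spoke rows, 1 of 2 rows of the nexin-dynein regulatory complex, 19 of 28 other CFAP rows, both foxj1 rows and the centriole and centrosome pair cep112 and poc1a. The row dnaaf5 had no read in any library and dnah9 a mean of 0.098 reads. A further 13 rows have only a gene number in the files and a fitting name in the reference table, and 9 of these had at least 5 reads on average. These rows are not members. One of them, LOC120460988, is also named cep112 in that table, and it is a different row from the member cep112.

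Libraries held 1316614 to 2097358 reads assigned to genes, with a median of 1618729. The members together took 732 to 1219 of those reads per library, with a median of 953. Their summed level was 478 to 787 CPM, the reads of a gene per 1000000 reads assigned to genes, with a median of 566. Of the 44, cfap77 and dnaaf1 did not pass the filter on low counts in the dexamethasone fit or in the fit of all libraries, which left 42. In the fluticasone propionate fit drc1 and rsph4a did not pass either, which left 40.

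The larvae carried the genes that the label of the set names. The regulator foxj1a was read in all 51 libraries, at 5.04 to 22.7 CPM with a median of 11.6. Its paralogue foxj1b was also read in all 51, at 1.45 to 10.2 CPM with a median of 3.87. The list of other nexin link, radial spoke and central pair genes, led by gas8, summed to 177 to 355 CPM with 19 of 24 entries found, and that of doublet microtubule inner proteins and tektins to 108 to 222 CPM with 24 of 26 found. The multiciliogenesis regulators mcidas, ccno and deup1 have no row under those names and were therefore not analysed. In RNA from whole larvae, fewer ciliated cells and less RNA per ciliated cell cannot be told apart.

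The first question was whether either glucocorticoid changed these genes against DMSO. No member was called at any of the 16 concentrations by edgeR's quasi-likelihood test, at an adjusted p of 0.05 over all genes, and none by DESeq2. Here and below, a gene to which DESeq2 gave no adjusted p counts as not called. For dexamethasone, 0 of 42 members were called at each label. Of all 18075 genes tested, 0% were called at each of the 3 lowest labels, and then 0.0166, 2.47, 0.133, 0.194 and 1.32% from 0.25 to 25 µM. From the lowest label to the highest, 1, 4, 3, 3, 6, 1, 3 and 1 members reached an unadjusted p under 0.05, against 3.45, 6.94, 5.82, 11.2, 17.3, 9.63, 9.01 and 10.1% of all genes. The share of members was above that of all genes at 0.025 and 0.08 µM and below it at the other 6 labels. The 0.08 µM group was in the contrast that led to the choice, so its values are a description only.

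For fluticasone propionate, 0 of 40 members were called at each label. Of all 17877 genes tested, 0.00559% were called at 0.003 µM, 0% at each of the next 4 labels, and then 0.0168, 0.0727 and 0.246% at the 3 highest. From the lowest label to the highest, 2, 0, 3, 6, 2, 5, 0 and 2 members reached an unadjusted p under 0.05, against 3.1, 3.69, 3.51, 7.15, 5.71, 4.96, 5.6 and 7.61% of all genes. The share of members was above that of all genes at 0.003, 0.01, 0.019 and 0.06 µM and below it at the other 4 labels. Those at 0.06 µM were 12.5% of the members tested, with 3 higher and 2 lower in the treated larvae. Those at 0.019 µM were dnah7, cfap61, cfap99, rsph1, cfap65 and cfap100, all higher in the treated larvae, with log2 differences of 0.62 to 1.03 and adjusted p of 0.599 to 0.690.

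The median half-width of a member's 95% interval was 0.85 on the log2 scale at 25 µM dexamethasone and 0.77 at 0.1 µM fluticasone propionate. At 25 µM dexamethasone the interval lay within -1 and 1 for 21 of 42 members. At 0.1 µM fluticasone propionate it did so for 17 of 40.

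**Figure D1:**
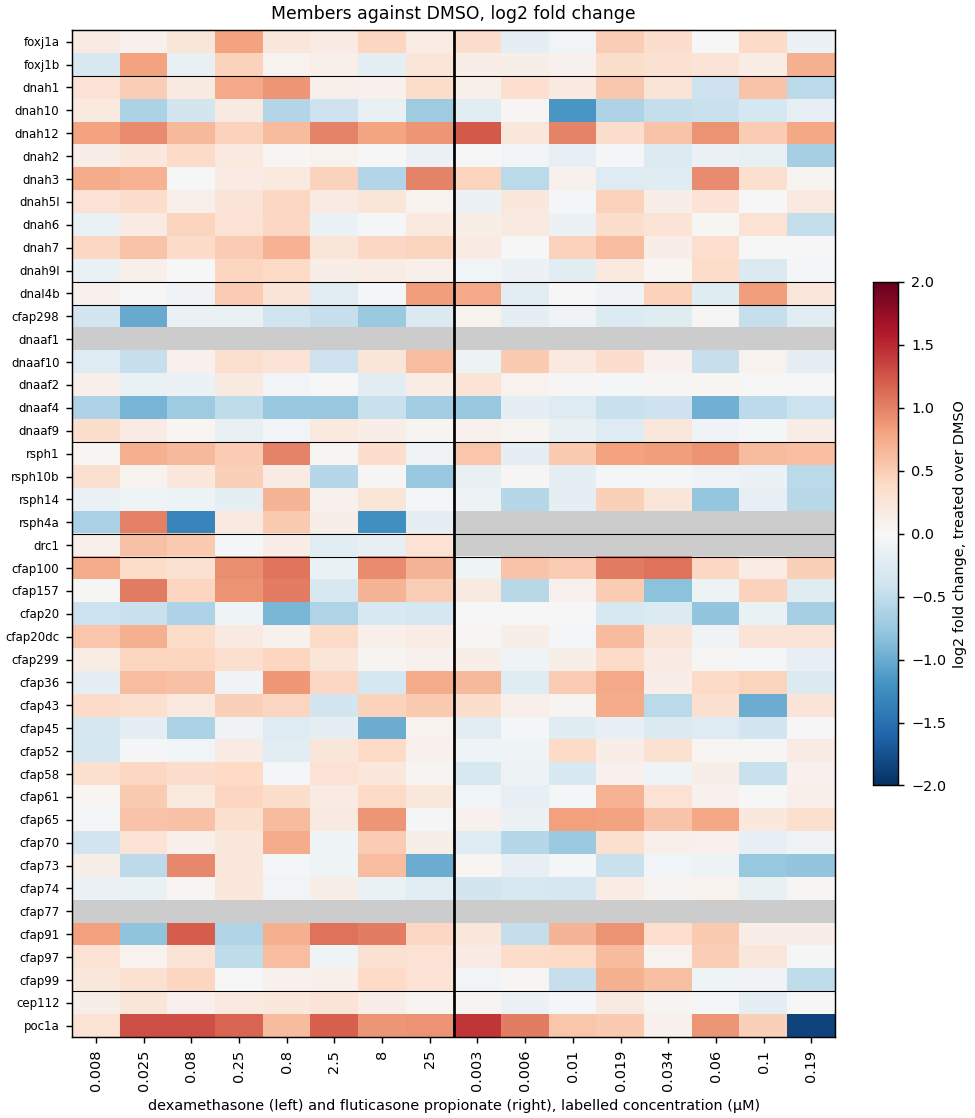
Log2 fold change of each member against DMSO (colour) at the 8 labels of dexamethasone, left of the black line, and the 8 of fluticasone propionate, right of it, with members grouped by role from the foxj1 pair at the top to the centriole pair at the bottom; grey rows did not pass the filter on low counts. No cell passed the test, and every column is set against the same 3 DMSO libraries.

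The regulators gave no call. In DMSO larvae foxj1a stood at 10.04, 9.90 and 10.8 CPM, and the highest group mean was that of 0.25 µM dexamethasone, with 21.4, 22.7 and 11.6 CPM. All 3 treated libraries there lay above all 3 DMSO libraries, with library C close to them, and the log2 difference was 0.81 ± 0.32 (SE, adjusted p = 0.334 by edgeR). The neighbouring labels showed no such level, since foxj1a was at 14.2, 13.6 and 9.61 CPM at 0.08 µM and at 12.2, 15.7 and 9.13 CPM at 0.8 µM. For foxj1b the highest group mean was at 0.025 µM dexamethasone, with 6.49, 7.37 and 5.67 CPM, against 3.90, 2.91 and 4.04 CPM in DMSO larvae. At 0.19 µM fluticasone propionate its 3 libraries were far apart, at 1.68, 10.2 and 5.62 CPM, and overlapped those of DMSO.

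Among the dynein heavy chains, the motors, dnah9l had the most reads. It stood at 42.6, 37.3 and 33.1 CPM at 0.8 µM dexamethasone, against 24.5, 28.0 and 30.3 CPM in DMSO larvae. The groups did not overlap, and the log2 difference of 0.39 ± 0.23 (SE) was not called by edgeR, with an adjusted p of 0.387. The inner arm heavy chain dnah7 was at 39.9, 29.7 and 33.7 CPM at 0.8 µM dexamethasone, against 18.4, 23.9 and 18.9 CPM in DMSO larvae. That difference of 0.69 ± 0.24 (SE) carried the smallest adjusted p of any member against DMSO at that label, 0.106 by edgeR.

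All comparisons with DMSO share the same 3 control libraries. Outside the rule for genes shown with values, dnah12, dnaaf4 and cfap298 were added after their values were seen. The heavy chain dnah12 had 3.35, 2.33 and 2.69 CPM in DMSO larvae, the lowest mean of the 17 groups, and treated group means ran between 3.24 CPM at 0.006 µM and 6.68 CPM at 0.003 µM fluticasone propionate. Its largest difference, at 0.003 µM, was 1.23 ± 0.51 (SE), with an adjusted p of 0.9996 by edgeR. The assembly factor dnaaf4, which acts in the cytoplasm before the arms are mounted, was the opposite case, with 11.2, 6.99 and 8.76 CPM in DMSO larvae, the highest mean of the groups. The treated group means of dnaaf4 reached down to 4.57 CPM at 0.06 µM fluticasone propionate.

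The other roles gave small counts and no call either. Among assembly factors dnaaf9, known in Tetrahymena for packing outer arm dyneins for transport, had the most reads, with 45.4, 40.2 and 44.1 CPM at 25 µM dexamethasone and 47.1, 38.4 and 52.2 CPM at 0.19 µM fluticasone propionate, against 40.2, 43.1 and 43.8 CPM in DMSO larvae. The assembly factor cfap298 reached an unadjusted p under 0.05 at 0.025 µM dexamethasone, where its log2 difference was -1.003 ± 0.32 (SE, adjusted p = 0.639 by edgeR), and at 8 µM, where it was -0.74 ± 0.30 (SE, adjusted p = 0.440). The light chain dnal4b had 5.92, 7.20 and 7.23 CPM at 25 µM dexamethasone, against 4.46, 2.91 and 4.04 CPM in DMSO larvae. That was 0.83 ± 0.47 on the log2 scale (SE, adjusted p = 0.573 by edgeR), in a gene of 12, 12 and 10 reads against 8, 5 and 6. The nexin-dynein scaffold drc1 had 0 to 14 reads in every library and was at 0 in 2.

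The radial spoke head protein rsph1 was at 13.5, 13.5 and 13.7 CPM at 0.8 µM dexamethasone, against 10.04, 5.24 and 4.04 CPM in DMSO larvae. The groups did not overlap, and the log2 difference of 0.99 ± 0.35 (SE) was not called by edgeR, with an adjusted p of 0.112. At 25 µM it stood at 4.93, 6.60 and 7.23 CPM, within the DMSO range. Among the CFAP genes cfap299 had the most reads, and was at 46.8, 25.8 and 44.9 CPM at 25 µM dexamethasone and 33.1, 39.0 and 26.6 CPM at 0.19 µM fluticasone propionate, against 30.1, 44.3 and 37.7 CPM in DMSO larvae. Both treated groups overlapped the controls.

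**Figure D2:**
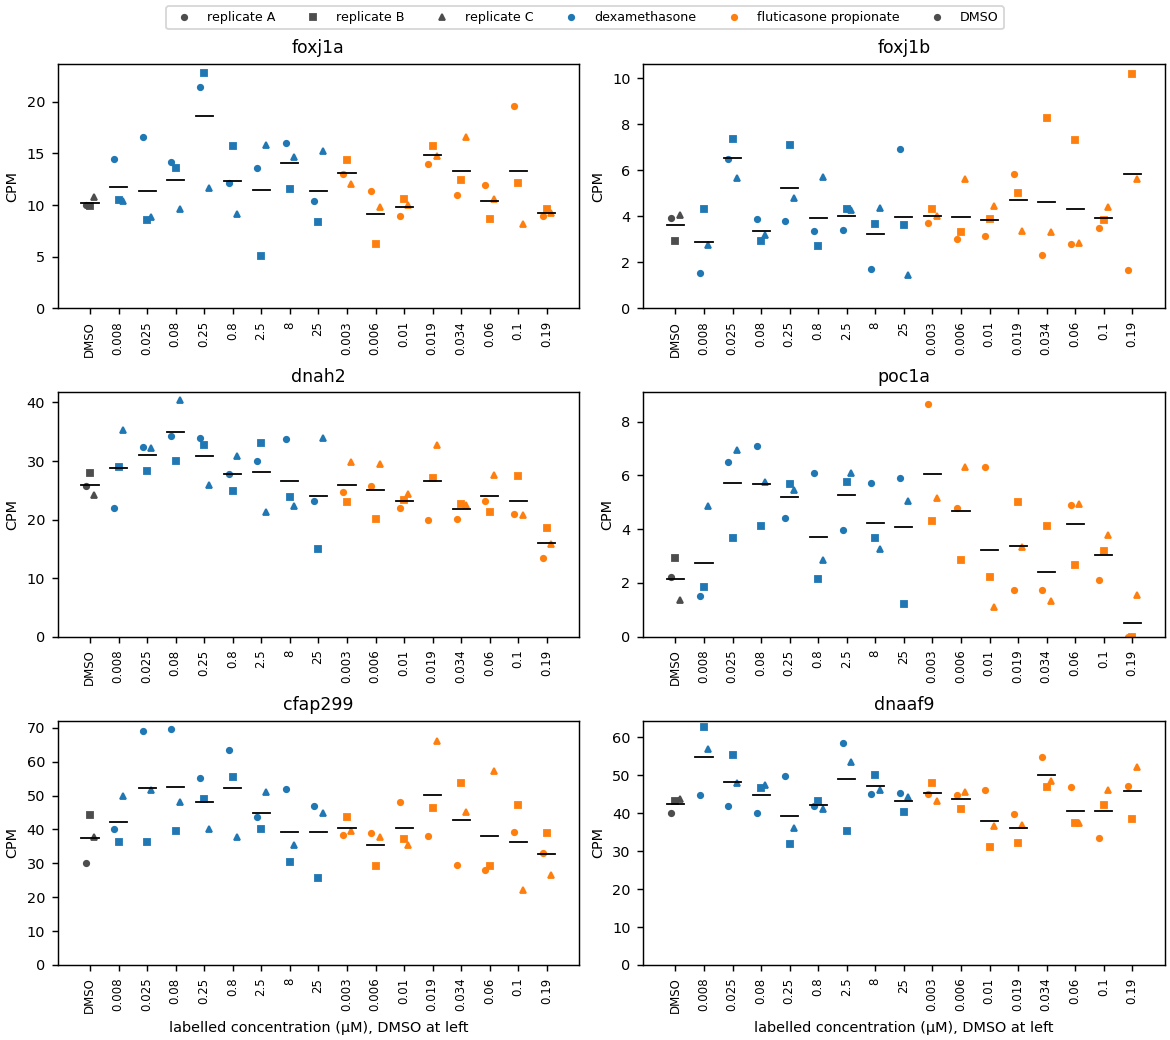
CPM of the regulators foxj1a and foxj1b, the heavy chain dnah2, the centriole gene poc1a, the CFAP gene cfap299 and the assembly factor dnaaf9 in each of the 51 libraries (symbols), with group means as bars and DMSO at the left of each series. foxj1a is highest at 0.25 µM dexamethasone in libraries A and B, poc1a is at 0 in 2 of the 3 libraries of 0.19 µM fluticasone propionate, and cfap299 has a high library A at 0.025, 0.08 and 0.8 µM dexamethasone.

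The second question was whether any member followed concentration among treated larvae. The trend was the slope of log2 expression per 10-fold of nominal concentration in 21 libraries per compound, without DMSO and without the group of each compound that led to the choice of members. With dexamethasone 0 of 40 members were called, against 1.52% of all 17827 genes tested, and 1 member reached an unadjusted p under 0.05, against 10.7% of all genes. With fluticasone propionate 0 of 36 were called, against 0.19% of 17390 genes, and 0 reached an unadjusted p under 0.05, against 9.47%. DESeq2 called 0 members in both.

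The dexamethasone trends were also narrow, and all 40 intervals lay within -1 and 1 per 10-fold, with a median half-width of 0.18. The member with the smallest p was rsph10b, a radial spoke gene, with a slope of -0.22 ± 0.09 (SE, adjusted p = 0.270 by edgeR). It had 16.7, 7.38 and 12.5 CPM at 0.008 µM, 13.2, 16.3 and 11.6 CPM at 0.25 µM and 6.41, 4.80 and 5.06 CPM at 25 µM, so that the highest concentration lay below both, with library B at 0.008 µM nearest to it. Next in order were the assembly factor dnaaf10 (0.21), cfap58 (-0.08), the doublet lumen protein cfap52 (0.13) and cfap20dc (-0.15), with adjusted p of 0.539 to 0.602. Over all 51 libraries dnaaf10 ran between 0.706 and 8.43 CPM with a median of 4.03, and cfap58 between 13.4 and 42.3 CPM with a median of 26.7. For cfap52 the range was 5.90 to 19.9 CPM with a median of 12.6, and for cfap20dc 2.67 to 24.5 CPM with a median of 8.80.

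The fluticasone propionate trends spanned fewer orders of concentration and were wider, with a median half-width of 0.41 per 10-fold. The smallest p belonged to rsph1, with a slope of 0.36 ± 0.20 (SE, adjusted p = 0.586 by edgeR). It had 11.7, 10.8 and 6.89 CPM at 0.003 µM, 2.99, 7.15 and 7.02 CPM at 0.006 µM and 11.9, 12.1 and 6.32 CPM at 0.1 µM, which overlap. The next were cfap70 (0.34), the central pair gene cfap74 (0.26), the doublet gene cfap20 (-0.30) and cfap43 (-0.47), with adjusted p of 0.629 to 0.664. Over all 51 libraries cfap70 ran between 3.80 and 37.8 CPM with a median of 17.3, and cfap74 between 8.06 and 30.2 CPM with a median of 16.2. For cfap20 the range was 4.01 to 15.7 CPM with a median of 8.95, and for cfap43 0.699 to 9.36 CPM with a median of 4.56.

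The compounds were compared directly where their measured concentrations were close, in 1 fit of all 51 libraries. At 0.025 µM dexamethasone against 0.06 µM fluticasone propionate, measured at 0.0189 and 0.0158 µM, 0 of 42 members were called by edgeR or DESeq2, as were 0% of all 18606 genes, and 1 member reached an unadjusted p under 0.05, against 4.36% of all genes. That member was cfap298, with a log2 difference of -1.03 ± 0.33 (SE, adjusted p = 0.999 by edgeR). At 0.008 µM dexamethasone against 0.019 µM fluticasone propionate, measured at 0.0066 and 0.0072 µM, 0 of 42 were again called by both tools, against 0% of all genes, and 3 reached an unadjusted p under 0.05, against 5.44%. Among the 42 members 32 were lower with dexamethasone there, with a median of -0.24, where the median of all genes was 0.0036.

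The smallest p at that pair was that of dnaaf9, which was higher with dexamethasone. It had 44.8, 62.8 and 56.8 CPM at 0.008 µM dexamethasone, against 39.7, 32.2 and 36.8 CPM at 0.019 µM fluticasone propionate, with no overlap and a difference of 0.61 ± 0.18 (SE, adjusted p = 0.796 by edgeR). The highest concentrations are not matched, since they were measured at 23.7 µM dexamethasone and 0.0597 µM fluticasone propionate. This pair reuses the 0.19 µM libraries that led to the choice of the genes and is a description only. In it 0 of 42 members stood past the limit with either tool, against 0% of all genes, 5 had an unadjusted p under 0.05, against 5.28%, and the smallest was that of poc1a. Over these 3 pairs, intervals within -1 and 1 were had by 19, 15 and 17 members.

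In the contrast that led to the choice, 0.08 µM dexamethasone against 0.19 µM fluticasone propionate, measured at 0.0550 and 0.0597 µM, 2 of 42 members stood above the limit used elsewhere, where 0.344% of all genes did. An unadjusted p under 0.05 went with 8, where 10.5% of all genes had one, and the values are given to show what was chosen. The inner arm heavy chain dnah2 had 34.2, 30.1 and 40.4 CPM with dexamethasone, against 13.4, 18.6 and 15.9 CPM with fluticasone propionate, while DMSO larvae lay between, at 25.7, 28.0 and 24.2 CPM. The log2 difference was 1.04. The centriole gene poc1a had 11, 7 and 9 reads with dexamethasone, against 0, 0 and 3 reads with fluticasone propionate, and 4, 5 and 2 reads in DMSO larvae. Its pooled reads per assigned read differed 10.3-fold, on these few reads and in the contrast through which the gene was chosen, so the ratio supports nothing.

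The member cep112, a centrosome gene, showed no such gap there. It had 62.0, 64.9 and 44.8 CPM with dexamethasone, against 54.3, 55.3 and 45.5 CPM with fluticasone propionate, and the log2 difference was 0.07. The row that did stand apart is LOC120460988, which the reference table also names cep112. It had a log2 difference of 1.125 ± 0.26 (SE), and the rule does not take it in. The log2 differences of the foxj1 pair in this contrast were 0.35 for foxj1a and -0.86 for foxj1b.

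These 2 groups also differed in a property of the libraries. HTSeq leaves reads that fall on no counted gene apart, and these made up 22.6 to 33.6% of all reads of a library. They are called reads outside genes here, and where they lie was not examined. Their share was 32.6, 25.7 and 27.4% at 0.08 µM dexamethasone, against 22.6, 25.7 and 22.9% at 0.19 µM fluticasone propionate, whose mean was the lowest of the 17 groups. With that share as a covariate in the fit of all libraries, the log2 difference was 0.79 for dnah2 and 2.57 for poc1a. These values too are a description, and the part of the share in this contrast was not tested.

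**Figure D3:**
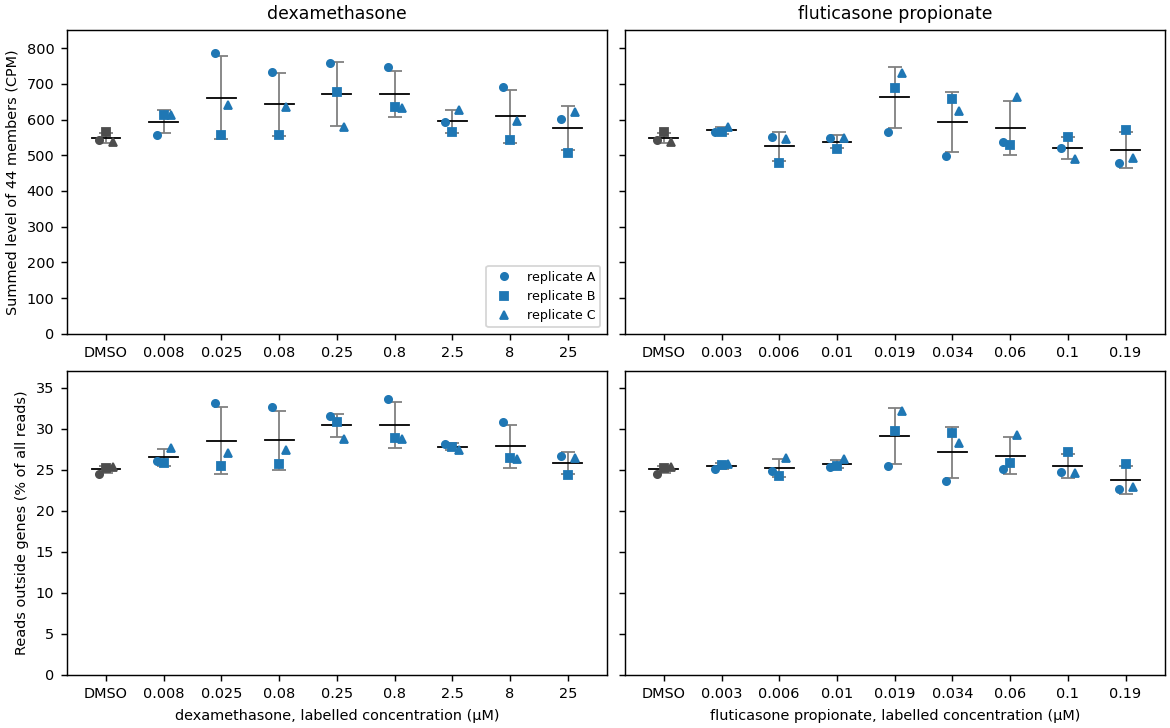
Summed CPM of the 44 members (top) and share of reads outside genes (bottom) in each library, by compound, with DMSO and then the labels from low to high; symbols are libraries A, B and C, black bars the group mean and whiskers the SD. The summed level and the share are both high in library A at 0.025, 0.08, 0.25, 0.8 and 8 µM dexamethasone and in libraries B and C at 0.019 and 0.034 µM fluticasone propionate.

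The summed level of the members moved with the share of reads outside genes from library to library. At 0.8 µM dexamethasone the members summed to 747, 635 and 633 CPM, where reads outside genes were 33.6, 28.9 and 28.8%. At 0.019 µM fluticasone propionate they summed to 566, 689 and 731 CPM, where reads outside genes were 25.4, 29.7 and 32.1%. At 0.19 µM fluticasone propionate they summed to 479, 571 and 491 CPM, with the lowest group mean. That group was in the contrast that led to the choice, so its values are a description only. DMSO larvae gave 542, 564 and 538 CPM, with shares of 24.5, 25.2 and 25.3%. At 0.8 µM dexamethasone and at 0.019 µM fluticasone propionate the library with the highest share also had the highest sum. That was not so in DMSO larvae, at 2.5 and 25 µM dexamethasone or at 0.006 µM fluticasone propionate.

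Over 45 libraries of 15 groups, without the 6 libraries of the contrast that led to the choice, Pearson's r between the sum and the share was 0.93 and Spearman's rho 0.87, given as a description. Without the 2 libraries farthest from the median share r was 0.90. It was 0.90 in the 21 dexamethasone libraries, 0.94 in the 21 of fluticasone propionate, and 0.91 for the deviations of the 45 from their group means. It was 0.83 in the 39 libraries at or below 30%. CPM is taken over assigned reads only, so both measures share a library and its split of reads, and relative to reads of all kinds r was 0.77. Over all 51 libraries, with the 6 of the contrast that led to the choice included, the 7 above 30% had 677 to 787 CPM. Their median was 734 CPM. The other 44 had 478 to 689 CPM, with a median of 564. Of the 7 above 30%, the A libraries of dexamethasone made up 5, with that of the 0.08 µM group among them. This split is a description only.

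**Figure D4:**
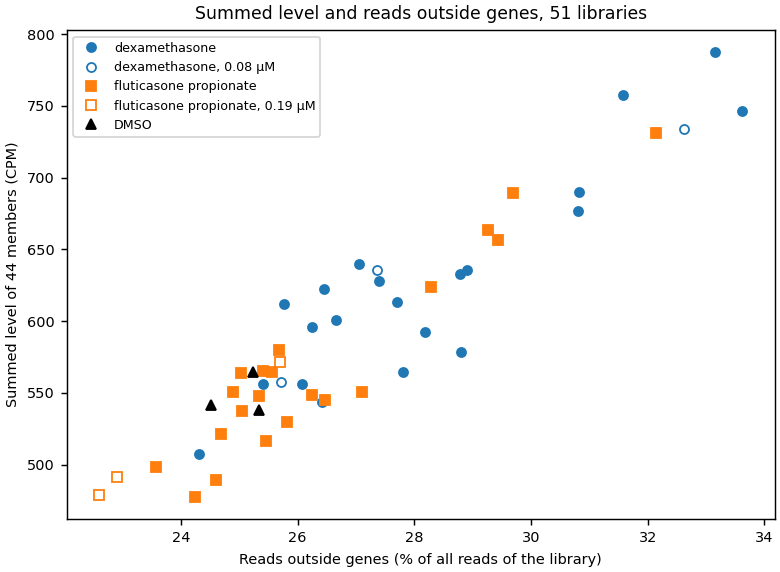
Summed CPM of the 44 members against the share of reads outside genes in all 51 libraries, by compound, with the 6 libraries of the contrast that led to the choice as open symbols. The sum climbs with the share in both compounds, and the DMSO libraries lie at low shares, between 24.5 and 25.3%.

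The relation was then fitted gene by gene, as the slope of log2 expression per percentage point of that share, with a mean for each of the 15 groups, so that it uses only differences between libraries of the same group. This comparison was chosen after the data had been seen. Of 42 members 7 were called by edgeR, all with a higher level where the share was higher, which is 16.7% of the members against 6.83% of all 18415 genes called in that direction. None was called lower, where 5.83% of all genes were, and 12.7% of all genes were called in either direction. DESeq2 called 6. An unadjusted p under 0.05 was reached upwards by 17 members, 40.5% against 13.6% of all genes, and downwards by 1, 2.38% against 13.1%. The slope was positive for 33 of 42, 78.6% against 47.0% of all genes, and its median was 0.053, against -0.0035 for all genes.

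The 7 were the heavy chains dnah6, dnah7 and dnah9l, the radial spoke gene rsph14, cfap61, cfap299 and cep112. The smallest p was that of cfap299, with 0.125 ± 0.019 per percentage point (SE, adjusted p = 8.9e-07 by edgeR), which is 2.38-fold per 10 points with a 95% interval of 1.84 to 3.07. Over all 51 libraries it ran between 22.1 and 69.7 CPM with a median of 40.3, its lowest library having a share of 24.6%. Its highest library belongs to 0.08 µM dexamethasone and was not in the fit, and the highest of those in the fit was library A at 0.025 µM dexamethasone, with 69.2 CPM and a share of 33.2%. For dnah9l the slope was 0.087 ± 0.023 (SE, adjusted p = 0.00498 by edgeR), with 17.3 CPM at a share of 23.6% and 46.9 CPM at 33.2%. Its median was 28.9 CPM.

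The calmodulin and spoke-associated gene cfap61 had a slope of 0.120 ± 0.030 (SE, adjusted p = 0.00336 by edgeR) and ran between 7.37 and 38.2 CPM, with a median of 17.04. Both extremes were libraries of the same group, 0.025 µM dexamethasone, the low one in B with a share of 25.4% and the high one in A with 33.2%. For rsph14 the slope was the highest of all members, 0.181 ± 0.048 (SE, adjusted p = 0.00643 by edgeR), on 0 to 18 reads per library. The heavy chain dnah6 had 0.089 ± 0.023 and dnah7 0.076 ± 0.025, with adjusted p of 0.00551 and 0.0281 by edgeR. Over all 51 libraries dnah6 ran between 8.40 and 37.8 CPM with a median of 25.3, and dnah7 between 12.4 CPM at a share of 24.2% and 41.1 CPM at 33.2%. The lowest level of cep112, 36.7 CPM, was also found at 24.2% and its highest, 79.8 CPM, at 33.6%. Its slope was 0.051 ± 0.017 (SE, adjusted p = 0.0333 by edgeR), and dnah2 did not pass the limit with 0.062 ± 0.022 (SE, adjusted p = 0.0502). Scaled to all reads of a library, cep112 and dnah7 were not called, with adjusted p of 0.202 and 0.101 by edgeR.

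By role, all 9 heavy chains had positive slopes, with a median of 0.062, and 3 were called. All 4 radial spoke genes were positive as well, with a median of 0.074 and 1 called, and so were 15 of 18 CFAP genes, with a median of 0.061 and 2 called. Of the 5 assembly factors tested 2 were positive and 0 were called, and their median was -0.033. Among them dnaaf2 had -0.045 ± 0.023 (SE, adjusted p = 0.181 by edgeR), the only member with an unadjusted p under 0.05 downwards. The summed CPM had r of 0.92 with the share for the heavy chains and -0.30 for the assembly factors, over the same 45 libraries. At 0.8 µM dexamethasone the heavy chains summed to 197, 177 and 177 CPM, against 135, 140 and 133 CPM in DMSO larvae, and the assembly factors to 87.9, 97.8 and 103 CPM, against 96.5, 106 and 115 CPM. The difference between roles was not tested.

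Neither regulator was called. The slope was 0.052 ± 0.033 for foxj1a (SE, adjusted p = 0.314 by edgeR) and -0.024 ± 0.053 for foxj1b (SE, adjusted p = 0.815). The light chain dnal4b had -0.030 and drc1 -0.025, neither called. Among the rows named through the reference table, LOC120460988 (cep112, 0.091), LOC120461100 (cfap46, 0.133), LOC120476999 (cfap54, 0.105) and LOC120477496 (dnah5, 0.095) were called, all upwards, with adjusted p of 0.00624 to 0.0374 by edgeR.

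**Figure D5:**
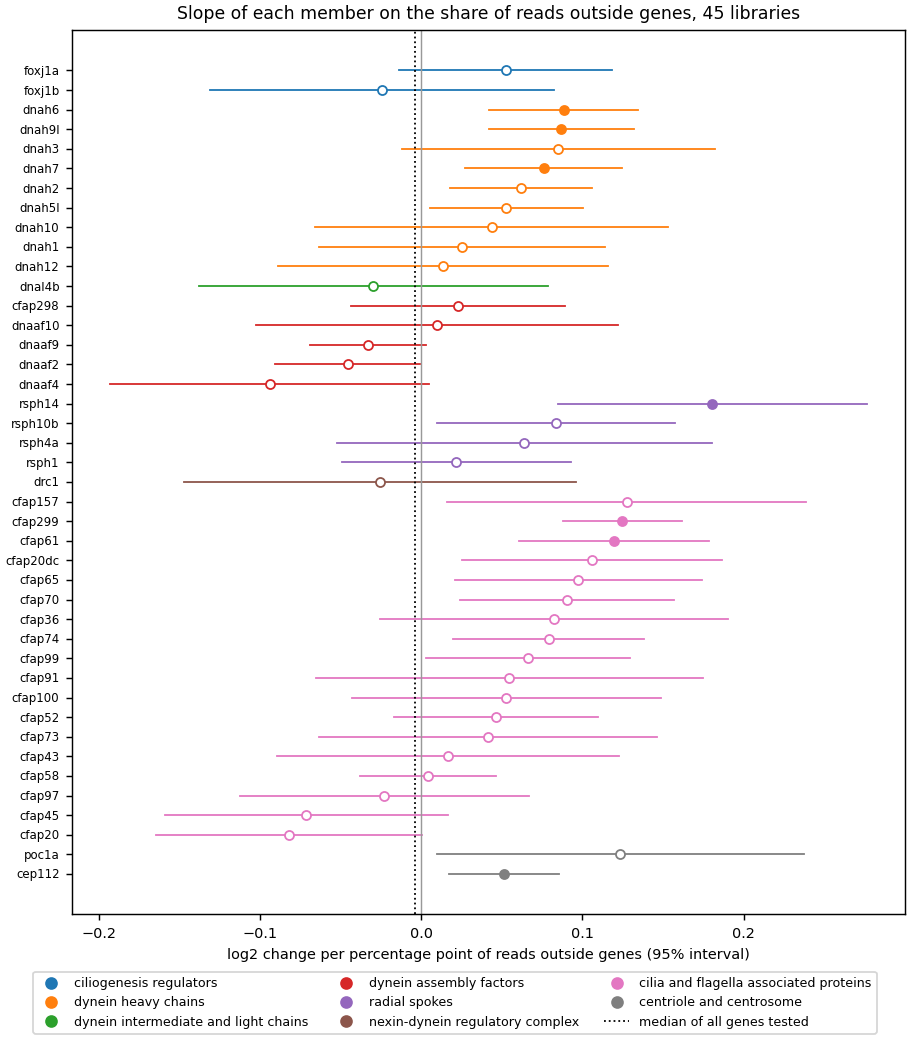
Slope of log2 expression per percentage point of reads outside genes for each of the 42 members tested, with 95% intervals, in 45 libraries; members are coloured by role, filled symbols were called and the dotted line is the median of all genes. The 7 filled points are dnah6, dnah9l, dnah7, rsph14, cfap299, cfap61 and cep112, all to the right of 0. To the left lie 9 members, none of them called, which are dnaaf4, cfap20, cfap45, dnaaf2, dnaaf9, dnal4b, drc1, foxj1b and cfap97.

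The slope was also fitted in fewer libraries. In the dexamethasone libraries alone 3 of 40 members were called, against 5.52% of all genes, with a median slope of 0.058. In those of fluticasone propionate alone 3 of 36 were called, against 2.66%, with a median of 0.062. A test of the difference in slope between the compounds called 0 members by edgeR and 0 of 18349 genes, with 0 members at an unadjusted p under 0.05. Without the libraries above 30% only cfap299 was called, a share of members close to the 2.73% of all genes, and the median slope was 0.054. Without the A libraries 2 were called, against 0.239% of all genes, with a median of 0.044. Without the B or the C libraries 2 or 3 were called. That is a share of members close to that of all genes, which is given with the processing below. Scaled to all reads of a library in place of assigned reads, 7 of 42 members were called, 5 up and 2 down, with a median of 0.032. That is a smaller share than the 21% of all genes called.

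Returning to the comparisons with DMSO, the mean share of a treated group lay between 23.7 and 30.4%, against 25.0% in DMSO larvae. The range of the share overlapped that of DMSO at 25 µM dexamethasone and at every fluticasone propionate label except 0.01 and 0.019 µM. At 0.003 and 0.006 µM fluticasone propionate the means were 25.4 and 25.2%. Median log2 differences of the members were 0.10 to 0.26 with dexamethasone, and between -0.06 and 0.08 once the share was a covariate. With fluticasone propionate they lay between -0.07 and 0.36, and between -0.08 and 0.04 with the covariate, which took the median farther from 0 at 0.006, 0.01, 0.06, 0.1 and 0.19 µM. At 0.8 µM dexamethasone the median was 0.26, and -0.02 with the covariate, while at 0.019 µM fluticasone propionate it was 0.36, and 0.04 with the covariate. In the same fits no member was called with the covariate. The median over all genes at these labels was 0.0017 and -0.014. At both labels every treated library had a higher share than every DMSO library, so the compound and the share cannot be told apart there. The same held at every other dexamethasone label except 25 µM. It also held, by a narrow margin, at 0.01 µM fluticasone propionate.

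Genes of the same structures outside the set were read in the same way, beside 6.83% of all genes called upwards on the share and 5.83% downwards. Of 14 other nexin link, radial spoke and central pair genes tested on the share, those called upwards included iqcg of the nexin-dynein regulatory complex (0.126) and spag17 of the central pair (0.110), and 0 were called downwards. The list's summed level had r of 0.89 with the share. Of 13 doublet microtubule inner protein and tektin genes, 3 were called upwards (efcab6, efhc2 and tekt3) and 0 downwards, with r of 0.84 for the list's sum. Of 16 other arm, docking and assembly genes, the docking gene odad2 was called upwards (0.114) and dynll1, a light chain that cytoplasmic dynein also uses, downwards (-0.074). The sum of that list had r of 0.18 with the share. Of 26 intraflagellar transport genes, ift122 was called upwards and ift52 and kifap3b downwards, with r of 0.44 for their sum.

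For lists of primary cilium and centriole genes the same shares of all genes apply. Of 26 BBSome and transition zone genes bbs10 was called upwards, of 23 centriole genes cetn4, and of 10 multiciliogenesis regulators cep152, with 0 downwards in each list. The sums of these lists had r of 0.67, 0.46 and 0.69 with the share, in that order. Over all these lists of cilium and centriole genes outside the set, calls against DMSO came at 1 label only, 0.8 µM dexamethasone. None was of a list in this paragraph. From the list of nexin link, radial spoke and central pair genes came iqcg, with a log2 difference of 0.94, and the adenylate kinase ak7b, with 1.09. From that of doublet microtubule inner proteins and tektins came tekt3, with 0.92. Their adjusted p were 0.0398, 0.00819 and 0.0468 by edgeR, at a label where 2.47% of all genes were called. That group had the highest mean share of reads outside genes. Of 18075 genes there 447 were called, and 4 with that share as a covariate. Without library A of the group 32 genes were called. Whether iqcg, ak7b and tekt3 were among the 4 or the 32 was not examined. The part of the share in these calls was not tested.

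Markers of the cell types that could carry these cilia were set beside the members. Over 51 libraries 13 pronephric kidney markers summed to 419 to 552 CPM and 11 of ependyma and floor plate to 210 to 279 CPM. The 14 of hair cells summed to 141 to 216 CPM and the 6 of olfactory neurons to 154 to 231 CPM. Most of the olfactory sum was ebf1a, with a mean of 155 CPM where the median sum was 179 CPM. On the share of reads outside genes, where 6.83% of all genes were called upwards, so were 2 of 12 kidney markers tested (nphs1 and pax2a), 3 of 9 hair cell markers (myo7aa, slc17a8 and tmc2b), 1 of 4 olfactory markers (ebf1a) and 1 of 9 of ependyma and floor plate (ntn1b), where s100b was called downwards. Germ cells, whose sperm would carry an axoneme, gave 18.7 to 50.3 CPM over 9 markers and 0 calls among 4 tested. Among 13 photoreceptor markers arr3a was called downwards, and r of the sum with the share was -0.31. For the other marker sums of this paragraph r was positive. It was 0.62 for kidney, 0.54 for ependyma and floor plate, 0.51 for hair cells, 0.79 for olfactory neurons and 0.50 for germ cells.

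Of the proliferation markers, pcna, mki67, mcm4, tpx2 and tk1 were called lower at 25 µM dexamethasone, where 1.32% of all genes were called. Log2 differences were -1.24 to -2.28, with adjusted p of 2.48e-05 to 0.0225 by edgeR. At 0.8, 2.5 and 8 µM pcna was called lower as well, and at 0.8 µM also mki67. Of all genes, 2.47, 0.133 and 0.194% were called at these 3 labels. The sum over 13 proliferation markers was 294, 253 and 278 CPM at 25 µM, the lowest group mean. DMSO larvae had the highest at 550 ± 84.6 CPM (SD, n = 3). The 1 marker at 0 in all libraries was mcm5. The sum of these markers had r of -0.20 with the share of reads outside genes, and the part of any cell type in the values of the cilia genes was not tested.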

How the data were processed

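Whole-larva RNA was sequenced with a 3′ tag kit that carries molecular identifiers, per the labels' protocols. The authors deposited raw read counts per gene, 1 column per library, in 1 table per compound, with the DMSO libraries. HTSeq 2.0.1 and STAR 2.7.10a stand in the submitters' processing notes, with FastQC, edgeR, bcl2fastq 2.20.0 and MultiQC 1.12. The genome build, and whether identifiers were collapsed, is not given in the sources used here. A log-scale table per compound that the authors also deposited was not used. Since counts are at 3′ ends, they were not divided by gene length, and levels were not compared between genes.

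Testing was by the robust quasi-likelihood test of edgeR 4.0.16 in R 4.3.3 with TMM factors, on genes kept by filterByExpr at a minimum of 10 reads and a total of 15, in 1 fit of 27 libraries per compound, 1 of 21 per trend and 1 of 51 for direct comparisons. Benjamini-Hochberg adjustment ran over all genes tested, with a limit of 0.05 and intervals of 95%. DESeq2 1.42.0, RLE factors, no count filter, a replicate block, a covariate for reads outside genes and leaving out libraries were alternatives. The slope on that share was added after the data were seen. Simulated data with known changes were used for edgeR fits against DMSO, of the trends, of 1 direct pair and of the slope. Fits by DESeq2, with a block or covariate, or of the slope difference between compounds were not simulated. Libraries of a group differed by 1.51 to 3.43 in chi-square per degree of freedom, so none was counted as a repeat.

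The members and all gene lists were chosen with earlier results of these data known. Values per library, or their range and median over all libraries, are given for dnah2, cep112, poc1a, the foxj1 pair, the member of each role with most reads, members called in any comparison and the 5 with the smallest p in each trend. All 44 member symbols were found in the reference table (RefSeq, assembly fPimPro1.hap1.1). No sequence or coordinate is given. One result of the other gene lists is not reported here.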

Additional observations from a re-analysis of the deposited data

How the results depend on the processing

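In the 21 comparisons with 0 members called, 271 alternatives also gave 0. Of 297 alternative counts in all, 280 lay within 1.5 times the reported count, and those 271 at 0 are among the 280. The other 17 all fell in the 2 comparisons with any member called. In 0.08 µM dexamethasone against 0.19 µM fluticasone propionate, where 2 members stood past the limit, the number was 1 by DESeq2, 4 with no filter on low counts, 1 in the 6 compared libraries alone and 0 with a covariate for reads outside genes, and 0 to 3 with 1 library left out. It was 0 without library C of dexamethasone or A of fluticasone propionate. There cep112 changed sign with the covariate (-0.13), without library B of dexamethasone and without library C of fluticasone propionate, and ran between -0.054 and 0.21 with 1 library left out. For the slope on the share of reads outside genes, where 7 were called, the count was 12 in all 51 libraries, 3 in dexamethasone libraries, 3 in fluticasone propionate libraries, 11 with members widened by reference names and 1 without libraries above 30%. Leaving out all libraries of 1 letter gave 2 to 3, with 0.239% of all genes called without A, 5.81% without B and 6.35% without C. Only cfap299 was called in each of these. Of 229 alternatives for single members, 184 gave the same call, 41 lost it, 1 gained it and 3 changed sign; 10 named members had no adjusted p in DESeq2. The causes were not tested. The letters were not taken as pairs, since 102 of 408 pairs of libraries with the same letter had a correlation of deviations over 0.1, against 150 of 816 with different letters, with medians of 0.019 and -0.0065. As a hint from the data, 26 of 51 libraries correlated best with their own letter. With the replicate block the number of all genes called was 847 in place of 447 at 0.8 µM dexamethasone and 69 in place of 3 at 0.25 µM, with 0 members in both. The slope gave 7 calls with the block, and cep112 was not among them, with an adjusted p of 0.0616 by edgeR. With 732 to 1219 member reads per library, changes of single members could have been missed. The interval half-widths given are medians over members, without adjustment, and are no limit of detection. At 25 µM dexamethasone dnah3 differed by 0.997 on the log2 scale, above the median half-width of 0.85. It was not called, with an adjusted p of 0.376 by edgeR.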
